A study of Mus musculus with 2 samples.

Results

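Mir6896 to Mir7092 are 198 mouse microRNA (miRNA) genes with neighbouring numbers, out of 2202 annotated miRNA genes counted in whole adrenal glands. The members were chosen by name alone: every miRNA gene of the GENCODE M21 annotation whose symbol is Mir followed by a number from 6896 to 7092, with any letter suffix. They carry 196 of the 197 possible numbers, no symbol of that annotation carries number 6967, and 3 of them have a letter suffix (Mir6973a, Mir6973b and Mir7036b). Small RNA under 30 nt from total RNA was sequenced in 2 libraries of adrenal glands, each from a male B6CASTF1/J mouse aged 2 months. This strain is a first-generation hybrid of a C57BL/6 and a CAST parent. The labels call the libraries biological replicates 1 and 2 and number the animals separately, although both carry 1 donor identifier. There was 1 group, with no treatment and no second genotype, so the question the data address is which of these genes have reads in the adrenal gland.

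Most miRNAs are cut from a hairpin of a longer transcript by the nuclear nuclease Drosha and then by the cytoplasmic nuclease Dicer. Mirtrons reach Dicer another way: the hairpin is a short intron, its ends are made by splicing and debranching, and Drosha is not needed. In a 5′-tailed mirtron the hairpin lies at the 3′ end of a longer intron and finishes at the splice acceptor, so the intron sequence before it has to be trimmed away. In both kinds the strand next to the acceptor carries the pyrimidine tract and the AG dinucleotide that mark the end of mammalian introns. Mirtron products are usually far less abundant than miRNAs made by Drosha.

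Nearly all members had the position of a mirtron or a 5′-tailed mirtron. The hairpin ended within 10 bases of the 3′ end of an intron of the same strand in 175 of the 198 genes, and filled a whole intron in another 18. Together these were 193 genes, or 97.5%, against 50 of the other 2004 miRNA genes, or 2.50%. In 184 members (92.9%) the last base of the gene was the last base of the intron, and all 184 ended in AG. A further 9 members ran 1 to 7 bases into the next exon. Mir6927, Mir6936 and Mir6977 lay at the 5′ end of an intron, which brings those that fill or end an intron to 196. Mir7025 in Pdgfra and Mir7036b in Add1 overlapped exons away from any intron end. The intron assigned to a member belonged to a protein-coding gene in 197 of 198 cases, and Mir7025, in an exon of Pdgfra, had no intron assigned. The members sat in 193 different hosts on 20 chromosomes, with 19 members each on chromosomes 7 and 11 and 2 on chromosome X.

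The hairpins of 3 members are printed to show these arrangements, from the RefSeq sequences of GRCm38.p6, with the intron's closing AG in capitals and, where the hairpin opens the intron too, its GU. Mir7083, the member with the most reads, lies at chr9:21809941-21810000 on the minus strand, and 1773 intron bases of Dock6 precede it.
Mir7083: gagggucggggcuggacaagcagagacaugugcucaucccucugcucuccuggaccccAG
Mir7069 lies at chr8:84867947-84868008 on the plus strand, and only 28 bases of its Farsa intron precede it.
Mir7069: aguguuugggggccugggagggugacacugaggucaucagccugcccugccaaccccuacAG
Mir6944 at chr13:55477681-55477776 on the minus strand is a complete intron of Dbn1, 96 bases long.
Mir6944: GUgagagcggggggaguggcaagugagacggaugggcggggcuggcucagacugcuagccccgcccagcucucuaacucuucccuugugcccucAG

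The mature products of the members best supported by reads share no seed with one another. RefSeq held 14 mature sequences for 7 of the 8 genes that reached 2 CPM (counts scaled by 1e6 over the library's total at miRNA genes) in both libraries, and none for Mir6971. The seed, bases 2 to 8, through which a miRNA mainly pairs with its targets, is in capitals, and the 14 seeds are all different.
miR-7083-5p: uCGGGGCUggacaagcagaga
miR-7083-3p: uCUGCUCUccuggaccccag
miR-7069-5p: uUGGGGGCcugggagggugacac
miR-7069-3p: cCUGCCCUgccaaccccuaca
miR-7013-5p: uAUGAAGAggccaguguuguag
miR-7013-3p: cCACACUUacuguugccucuuccu
miR-6934-5p: uUGGUGGAgacagcaagggugg
miR-6934-3p: aCCUCUGCuccugccccaccag
miR-7051-5p: uCACCAGGaggaaguuggguca
miR-7051-3p: uGAGCCACugauuccugugugc
miR-7035-5p: gGCUGGGAgaguggcucagaa
miR-7035-3p: uCUGAGCCgcugucccugcag
miR-7019-5p: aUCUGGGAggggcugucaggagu
miR-7019-3p: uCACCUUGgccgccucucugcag
The arms next to the acceptor, the 3p arms, are rich in C and U (59.1% to 79.2% in these 7 genes), while the 5p arms that pair with them hold 27.3% to 36.4%. The seed of miR-7069-3p is also that of miR-18a-3p, and the seed of miR-7083-5p is also that of miR-12197-3p. Within the range of numbers, miR-7019-5p shares its seed with miR-6907-5p. Over all 348 mature sequences of the members there were 321 different seeds, and 23 of them occurred in more than 1 member sequence; CACCCUG, for example, is the seed of miR-7018-3p, miR-7023-3p and miR-7068-3p.

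The same contrast between the arms ran through the whole range of numbers. Over the members with an entry, the median pyrimidine content was 31.8% in 174 5p arms and 72.1% in 174 3p arms. Among other miRNA genes it was 50.0% in 553 5p arms and 54.5% in 557 3p arms. The 3p arm was the richer in 164 of 166 members with both arms (98.8%) and in 284 of 512 other genes (55.5%). The 3p arm ended in AG in 136 of 174 members (78.2%) and in 62 of 557 other genes (11.1%), and in 130 of the 174 it ended at the last base of the gene. Members with and without reads had similar arms: the medians were 31.8% and 71.4% in the 71 members with reads in both libraries, and 33.3% and 71.4% in the 49 without a read. The box plot of arm composition sets the 3p arms of the members apart from the other sets.

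**Figure D1:**
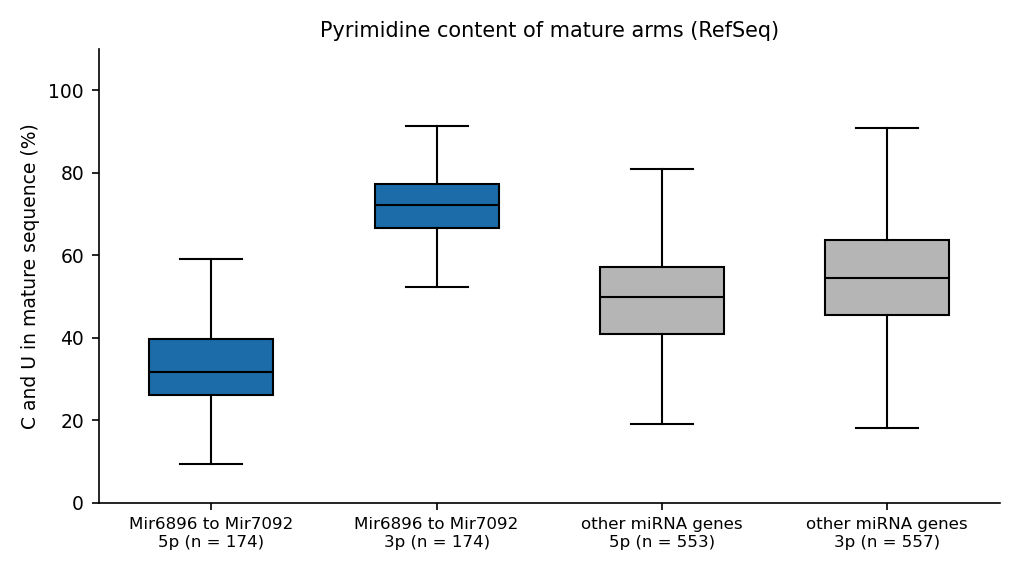
Percentage of C and U in mature 5p and 3p sequences of the Mir6896 to Mir7092 genes (blue) and of all other miRNA genes (grey). The line is the median, the box spans the quartiles, and whiskers reach the last value within 1.5 box lengths, with values beyond not drawn; the medians are 31.8% and 72.1% in the members against 50.0% and 54.5% elsewhere.

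Reads on the members were few in both libraries, and the 95% intervals of their shares overlapped. Replicate 1 held 594 of its 5752428 reads at miRNA genes on these 198 genes, a share of 0.0103% with an exact 95% Clopper-Pearson interval from 0.00951% to 0.0112%. Replicate 2 held 350 of 3333149, a share of 0.0105% (0.00943% to 0.0117%). The members together reached 103 and 105, or 104 ± 1.23 (SD, n = 2). This is 3 reads per gene in replicate 1 and 1.77 in replicate 2. The most abundant miRNA gene of the glands, Mirlet7g, alone stood at 114966 CPM in mean. Intervals and limits cover counting error only, with each read taken as independent, and hold no spread between animals. PCR copies of 1 molecule cannot be told from separate molecules, so the intervals may be too narrow even for counting error.

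Of the 198 members, 82 (41.4%) had at least 1 read on their own strand in both libraries, where 26.5% of all 2202 miRNA genes did. Another 54 had reads in 1 library only, 30 of them in replicate 1 and 24 in replicate 2, and 62 (31.3%) had none. Of the 112 members with a read in replicate 1, 73.2% also had one in replicate 2, and of the 106 in replicate 2, 77.4% also had one in replicate 1. Detection at 2 CPM in both libraries, which took 12 reads in replicate 1 and 7 in replicate 2, was reached by 8 members (4.04%), where 16.9% of all miRNA genes reached it. The share with reads was thus above that of all miRNA genes and the share at 2 CPM below it, as a description without a test. Of the 2004 other miRNA genes in that comparison, 69.4% had no read in either library. Over both libraries 24 members had a single read, 49 had 2 to 4, 30 had 5 to 9, 22 had 10 to 19, and 11 had 20 or more. The 25 members highest in mean CPM held 52.2% of the member reads in replicate 1 and 55.1% in replicate 2, so the rest was spread thinly over many genes. A count of 0 allows up to 3 reads, that is 0.522 CPM in replicate 1 and 0.900 CPM in replicate 2.

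**Figure D2:**
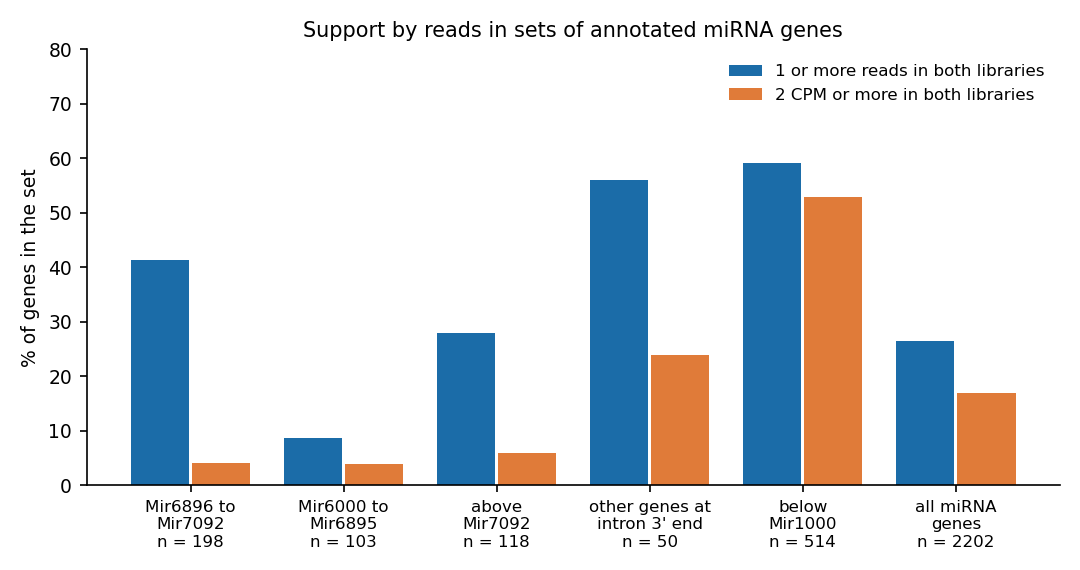
Percentage of genes in each set with at least 1 read in both libraries (blue) and with 2 CPM or more in both (orange), with the number of genes under each set. For Mir6896 to Mir7092 the bars stand at 41.4% and 4.04%, and for genes numbered below 1000 at 59.1% and 52.9%.

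Other ranges of numbers are given for scale, without a test. Of 103 genes numbered from 6000 to 6895, 9 (8.74%) had reads in both libraries and 4 (3.88%) reached 2 CPM, and 88.3% had no read at all. Of 118 genes numbered above 7092, 33 (28.0%) had reads in both and 7 (5.93%) reached 2 CPM. The early numbers, below 1000, include most long-known miRNAs, and 272 of 514 (52.9%) reached 2 CPM. The 50 other genes at the end of an intron or filling one are closest in position: 28 (56.0%) had reads in both libraries and 12 (24.0%) reached 2 CPM. The set is mixed, since 27 of the 50 (54.0%) ended at the intron's last base, against 92.9% of the members. It also includes the 6 known mirtrons listed below. Its best supported gene was Mir382, at 4845 and 4777 CPM, which ran 2 bases past the end of its intron in the noncoding transcript Mirg. Next was Mir1981, at 411 and 343 CPM. Mir7083, the best supported member, had 5.74 and 5.40 CPM.

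Mir7083, in an intron of Dock6, an exchange factor for small GTPases, was the highest member. It had 33 reads (5.74 CPM) in replicate 1 and 18 reads (5.40 CPM) in replicate 2, or 5.57 ± 0.238 CPM (SD, n = 2), and it ranked 326th among all miRNA genes. Mir7069, in Farsa, which encodes the alpha subunit of phenylalanyl-tRNA synthetase, followed with 22 reads (3.82 CPM) and 15 reads (4.50 CPM). In both libraries these were among the highest members. Mir7013 in Pi4kb, a phosphatidylinositol kinase gene, had 13 reads (2.26 CPM) and 14 reads (4.20 CPM), after 5054 bases of intron. Mir6934 in Tbc1d16, a gene for a Rab GTPase-activating protein, had 16 reads (2.78 CPM) and 11 reads (3.30 CPM). Both of these hairpins lie opposite another gene, Gm15265 and Gm26888 respectively, and neither had a read on the opposite strand.

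The other detected members stood just above 2 CPM. Mir7051 in Etfb, a subunit of the electron transfer flavoprotein of mitochondria, had 17 reads (2.96 CPM) and 8 reads (2.40 CPM). Mir7035 in Rasa4, a Ras GTPase-activating protein gene, had 17 reads (2.96 CPM) and 7 reads (2.10 CPM). Mir6971 in Skiv2l, the RNA helicase of the SKI complex, had 15 reads (2.61 CPM) and 8 reads (2.40 CPM). All of these had the higher CPM in replicate 1, by less than 1 CPM. Mir7019 in Pink1, the mitochondrial kinase gene, was the lowest of the detected members, with 12 reads (2.09 CPM) and 7 reads (2.10 CPM). Just outside the threshold lay Mir6944, the complete Dbn1 intron, with 11 reads (1.91 CPM) and 7 reads (2.10 CPM), which is 1 read short in replicate 1. The hairpins of Mir7051, Mir7035 and Mir7019 also overlap an exon of another transcript of their host, and the files, which hold counts for whole genes, do not show whether reads match a mature product or a fragment of the host transcript.

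**Figure D3:**
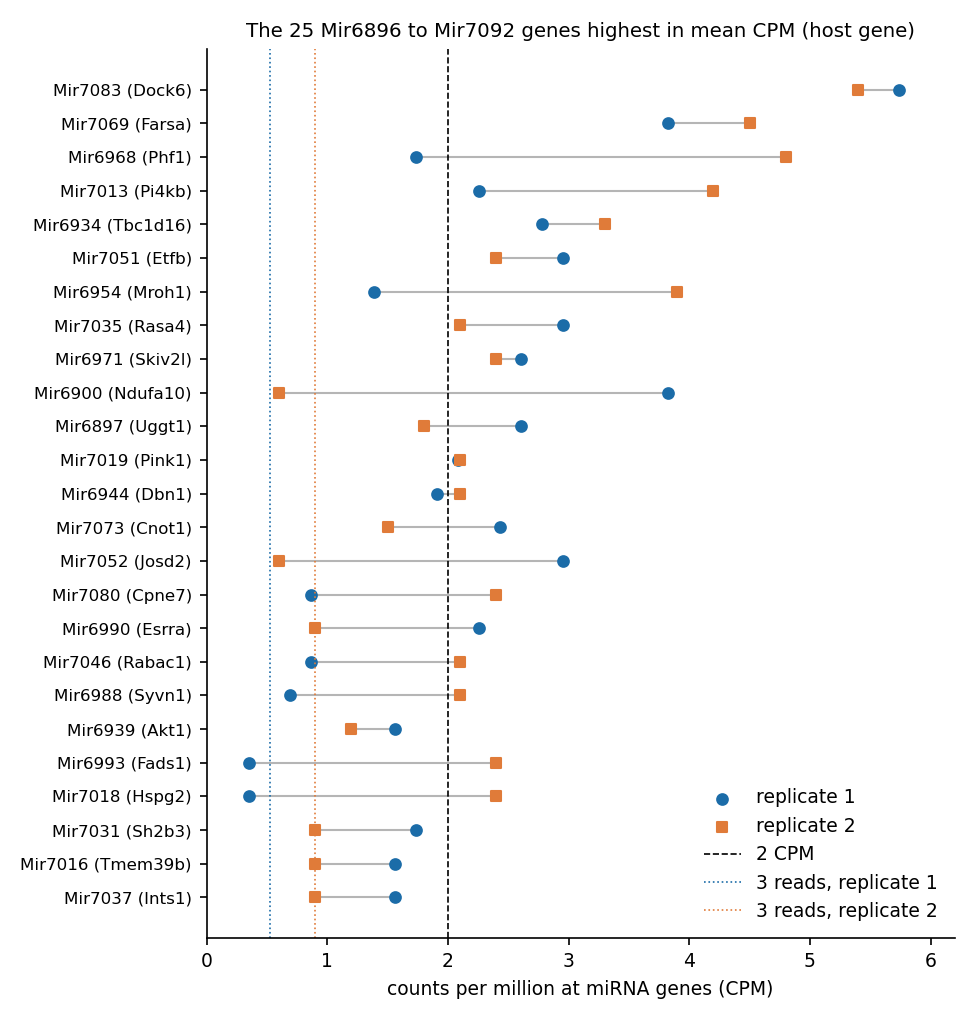
CPM of the 25 members highest in mean CPM, with the host gene in parentheses; circles are replicate 1, squares replicate 2, the dashed line is 2 CPM and the dotted lines are 3 reads in each library. Mir7083 stands above 5 CPM in both libraries, 8 members lie at or beyond the dashed line in both, and Mir6968, Mir6954, Mir6900 and Mir7052 have the widest gaps.

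A further 13 members passed 2 CPM in 1 library only, 5 of them in replicate 1 and 8 in replicate 2. The replicate 1 group held Mir6900 in Ndufa10, an accessory subunit gene of respiratory complex I (22 and 2 reads), and Mir7052 in Josd2, a deubiquitinase gene (17 and 2 reads). It also held Mir6897 in Uggt1, a folding sensor of the endoplasmic reticulum (15 and 6 reads), Mir7073 in Cnot1, the scaffold of the CCR4-NOT deadenylase (14 and 5 reads), and Mir6990 in Esrra, an orphan nuclear receptor gene (13 and 3 reads). The replicate 2 group included Mir6968 in Phf1, a Polycomb-associated protein gene (10 and 16 reads), and Mir6954 in Mroh1 (8 and 13 reads). Mir7080 in Cpne7 (5 and 8 reads), Mir7046 in Rabac1 (5 and 7) and Mir6988 in Syvn1, an endoplasmic reticulum ubiquitin ligase gene (4 and 7), also belonged to it. So did Mir6944, Mir6993 in Fads1, a fatty acid desaturase gene, and Mir7018 in Hspg2, the perlecan gene; each of the latter pair had 2 and 8 reads. All 13 had reads in both libraries, but Mir6900, Mir7052, Mir6993 and Mir7018 had only 2 reads in 1 of them. That is below the 3 reads that a count of 0 allows.

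At least 3 reads in each library were present for 31 members. They were the members with 2 CPM in at least 1 library, except Mir6900, Mir7052, Mir6993 and Mir7018, and in addition Mir6939 in Akt1 (9 and 4 reads), Mir7031 in Sh2b3 (10 and 3 reads), Mir7016 in Tmem39b, Mir7037 in Ints1, Mir7063, Mir6912, Mir6994, Mir7068, Mir6986, Mir7021, Mir7059, Mir6919, Mir6959 and Mir7045. Mir7016, Mir7037 and Mir7063 each had 9 and 3 reads, and the lowest of the 31, Mir6919, Mir6959 and Mir7045, each had 3 and 3. Of the 54 members seen in 1 library, 24 had a single read. The one with the most was Mir6909 in Plpp2, with 11 reads in replicate 1 and 0 in replicate 2; it was singled out after its values were seen. Support in both libraries at 3 reads or more thus covered 31 members, and at 10 reads or more 5 members (Mir7083, Mir7069, Mir6968, Mir7013 and Mir6934). The shares of all miRNA genes at these limits are not given, so the counts describe the members alone.

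Between the 2 libraries, the counts of most members were too low to compare. A two-sided exact binomial test with TMM library sizes was run over all 389 miRNA genes whose mean count was at least 10, and it compares these libraries, not conditions. Its p-values and SE cover counting error alone, with each read taken as independent, and hold no spread between animals. Of the genes tested, 59.6% differed at a Benjamini-Hochberg adjusted p under 0.05, 30.8% higher in replicate 1 and 28.8% lower. Among them were 11 members, of which 2 passed. Only 1 of these 11 had 20 or more counts in mean, and their SE ran from 0.42 to 0.96. At such counts only large ratios can pass, so 2 of 11 cannot be set against the 59.6%. Mir6900 was higher in replicate 1 (log2 ratio 2.58, SE 0.96, adjusted p = 0.00235 by the exact binomial test). Mir6968 was lower in replicate 1 (log2 ratio -1.24, SE 0.57, adjusted p = 0.0474 by the same exact test). Mir6954 had a log2 ratio of -1.26 (SE 0.63) with an adjusted p of 0.0739 in that exact test, and the other 8 lay between -0.69 and 0.66. The median log2 ratio was 0.27 over the 11 members and 0.01 over all 389 genes. The Mir6968 call was lost when genes with 1 or more counts in mean were tested (exact binomial test, adjusted p = 0.0751). Neither gene was called by edgeR's exact test with a common dispersion. That dispersion was estimated with the 2 libraries as replicates, so it takes in the difference under test. The edgeR test therefore cannot decide whether either gene differs. The libraries also differed in red cell markers: Mir451a, Mir144 and Mir486 stood together at 22813 and 901 CPM, and their part in these differences was not tested.

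The mature sequences of both genes are shown because they were the members that passed, and in both the 3p arm holds more C and U than the 5p arm (52.4% against 41.7% in miR-6900, 63.6% against 27.3% in miR-6968).
miR-6900-5p: uGCCAGGAgaagccuagagccguc
miR-6900-3p: uGGUGAUGggcucucuuguag
miR-6968-5p: aGGGGGCGagggggcccugugg
miR-6968-3p: aCAAGCGCugucuccccuccag
Mir6900 lies at chr1:92464483-92464542 on the minus strand behind 2838 intron bases, and Mir6968 at chr17:26935472-26935539 on the plus strand behind 74 intron bases, opposite Cuta. The scatter of both libraries shows the members packed near the origin, with a Spearman rho of 0.57 over the 198 genes, a description only, since most of these counts are very low.

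**Figure D4:**
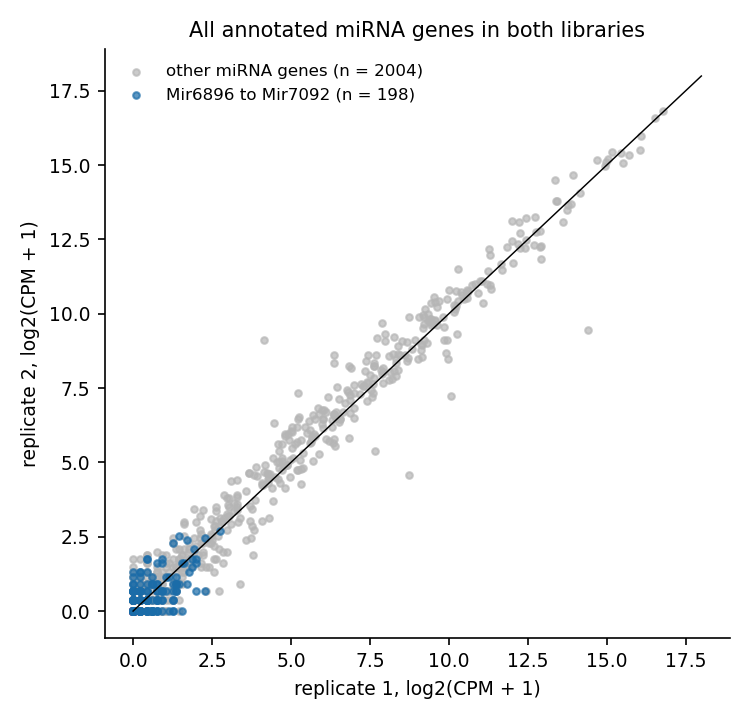
Each point is 1 miRNA gene, with log2(CPM + 1) in replicate 1 on the horizontal axis and in replicate 2 on the vertical axis; the line marks equal values. The 198 members (blue) lie at the low end, up to Mir7083 at 5.74 and 5.40 CPM.

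Both forms of intron gave members with reads. The 175 members at an intron's 3′ end had 563 and 310 reads, or 3.22 and 1.77 per gene, and 75 of them (42.9%) had reads in both libraries. The 18 that fill an intron had 29 and 36 reads, or 1.61 and 2 per gene, and 6 of them (33.3%) had reads in both. All 8 detected members were of the 3′ end form, and Mir6944 was the highest of the whole-intron form. Of the 3 members at an intron's 5′ end, only Mir6936 in Sirt7 had reads, 2 in replicate 2. Mir7036b had 2 reads in each library and Mir7025 none.

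The intron before a 3′ end hairpin ranged from 11 to 36205 bases, with a median of 514. Of the 43 members with 11 to 100 bases before them, 22 (51.2%) had reads in both libraries, among them Mir7046 with 11 bases, Mir6988 with 23 and Mir7069 with 28. Of the 42 with 101 to 500 bases, 22 (52.4%) had, but none reached 2 CPM in both. Of the 63 with 501 to 2000 bases, 20 (31.7%) had reads in both and 5 reached 2 CPM, led by Mir7083. Of the 27 with longer introns, 11 (40.7%) had, and Mir7013 reached 2 CPM. Mean reads per gene ran from 2.79 to 3.96 in replicate 1 and from 1.14 to 2.16 in replicate 2 over these 4 classes, with no order by length.

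**Figure D5:**
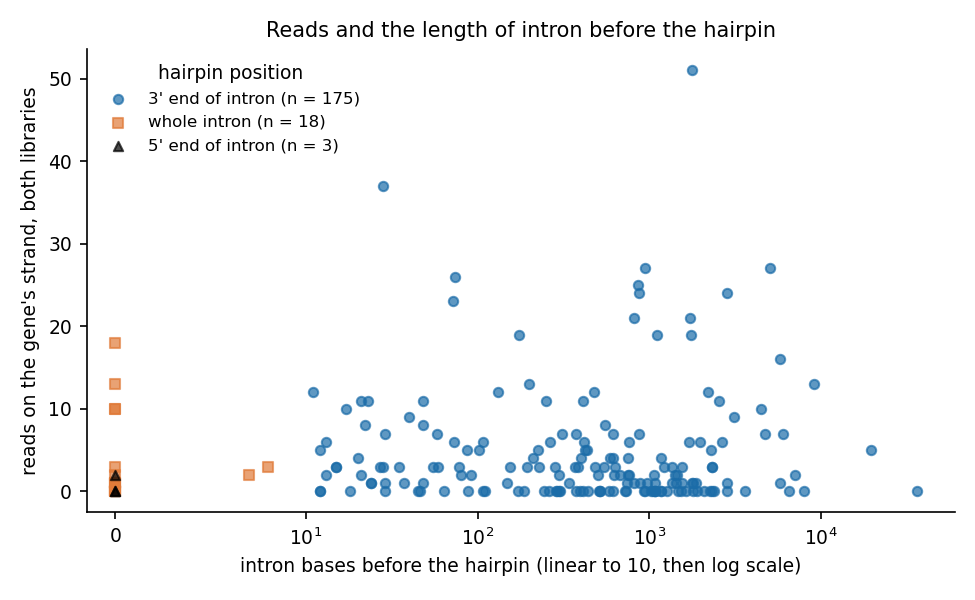
Reads of each member over both libraries (vertical axis) against the number of intron bases before its hairpin (horizontal axis, linear to 10 and logarithmic beyond); circles are the 3′ end form, squares whole introns and triangles the 5′ end form. The highest point is Mir7083 with 51 reads after 1773 bases, followed by Mir7069 with 37 after 28 bases.

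Of the hosts, 5 hold 2 members each. In Skiv2l, Mir6971 had 15 and 8 reads while Mir6970, which fills another intron of the same gene, had 0 and 0. In Srebf1, the gene of a master regulator of lipid synthesis, Mir6921 had 8 and 2 reads and Mir6922 had 4 and 1. In Ankrd52, Mir6914 had 2 and 0 reads and Mir6915 had 1 and 5. In Cmip, Mir7077 had 2 and 0 reads and Mir7078 none, and in Arap3, Mir6980 had 8 and 0 reads and Mir6981 none. The 2 hairpins of a pair share a host gene, whose transcripts the files do not measure. Whether both lie in introns of the same transcript was not tested.

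Over both libraries 944 reads lay on the members' own strand and 6 on the opposite one, an opposite share of 0.503% for replicate 1 (95% exact interval by Clopper-Pearson, 0.104% to 1.46%) and of 0.850% for replicate 2 (0.176% to 2.46%). Over all miRNA genes the opposite share was 14.9% and 12.4%, and over other miRNA genes that overlap no miRNA gene it was 0.00499% and 0.0104%. The members' opposite share, from 6 reads in all, was thus well above that of genes overlapping no miRNA gene. It was below that of all miRNA genes. Only Mir7071 in Heatr3, Mir6935 in Actg1, the gamma actin gene, and Mir6953 in Grina had any. Mir7071, which lies opposite an exon of Gm9988, had 1 opposite read beside 9 own reads in replicate 1 and 3 beside 2 in replicate 2, and the others had 1 opposite read each. No member had more opposite than own reads over both libraries, where 2.18% of all miRNA genes had, those that overlap another miRNA gene included.

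An annotated exon of the same strand overlapped 41 members, including the 9 that run into the exon after their own intron and Mir6912, which lies in Gm49322 and overlaps an exon of Scamp4. These 41 had 134 and 89 reads, and 21 of them (51.2%) had reads in both libraries. Of the 157 without such an overlap, 61 (38.9%) had, and 5 of these reached 2 CPM: Mir7083, Mir7069, Mir7013, Mir6934 and Mir6971. Leaving out the 41 lowered the members' share from 0.0104% to 0.00791%. No member overlapped another annotated small RNA. Mir6970 and Mir7065 shared a stretch of 18 bases with another miRNA hairpin, so their reads (0 and 0 for Mir6970, 5 and 0 for Mir7065) are uncertain, because reads that fit several places were not counted at genes. Copies outside annotated miRNA hairpins were not searched, so the loss of such reads was not measured for any member.

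Hairpins of the members were short and GC-rich, with a median length of 66 bases (range 52 to 137) against 89 over all miRNA genes, and a median GC content of 57.4% against 50.8%. The predicted folding energy was -0.389 kcal/mol per base in median for the members and -0.365 for the other genes. It was -0.402 in the 82 members with reads in both libraries, -0.381 in the 62 without a read and -0.435 in the 8 detected. The same order held for GC content, with medians of 58.2%, 56.8% and 62.9%. These groups overlap, since the 8 detected members are among the 82, and no spread is given. Neither the relation of energy nor that of GC content to support by reads was tested.

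Well-known mirtrons outside the range of numbers are given for scale, from a list chosen with earlier results of these data known. Of 6 listed, all fill an intron, unlike the 175 members at an intron's 3′ end, and 5 reached 2 CPM. Mir1981 in Marc2 stood at 411 and 343 CPM, and Mir3102 in Arhgef17 at 276 and 378 CPM. Mir877 in Abcf1 stood at 62.4 and 77.1 CPM, Mir702 in Plod3 at 19.1 and 23.7 CPM, and Mir1224 in Vwa5b2 at 3.30 and 8.10 CPM. Mir1982 in Oaz1 had 7 reads in each library, 1.22 and 2.10 CPM. The highest member, Mir7083, thus lay beside Mir1224 and far below Mir1981.

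The glands carried the miRNAs of their tissue. All 7 miRNA genes of a list for adrenal cortex and medulla were detected, led by Mir375 at 68780 and 46236 CPM, and the list summed to 74263 and 52997 CPM. Markers of other cells were present too: the endothelial Mir126a stood at 69154 and 65133 CPM, the white cell list summed to 1116 and 1451 CPM, the liver's Mir122 to 690 and 1331 CPM and the kidney list to 97.4 and 141 CPM. The muscle list summed to 710 and 453 CPM with 3 of 7 genes detected and Mir1a-1 and Mir133a-2 at 0. Within it the libraries differed both ways: Mir499 stood at 423 and 23.1 CPM and Mir208b at 204 and 40.8 CPM, while Mir206 stood at 81.7 and 389 CPM. In bulk tissue, fewer cells of a type and less RNA per cell cannot be told apart, and the cells that gave the members' reads are not shown by these data.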

How the data were processed

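The authors deposited unnormalized counts of reads at each miRNA gene on mm10, annotated by GENCODE M21, per the library descriptions. Aligner and adapter trimming: not given in the sources used here. Of 3 count columns, the one for the gene's strand was used. The 4 leading entries that name no gene held 66.2% of 17000342 reads in replicate 1 and 69.0% of 10752051 in replicate 2, among them reads that fit several places (26.2% and 28.8%), and stayed out of library sizes and tests. CPM are counts over the total at miRNA genes, times 1e6. Introns, hosts and overlaps came from GENCODE M21 and sequences from RefSeq (GRCm38.p6): 177 members had a RefSeq hairpin, all 177 identical to the GENCODE sequence, and 182 a mature entry. A hairpin filled or ended an intron where its ends lay within 10 bases of the intron's.

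With 1 group of 2 libraries a quasi-likelihood test could not be fitted. Replicates 1 and 2 were compared by a two-sided exact binomial test in R 4.3.3 with TMM sizes (edgeR 4.0.16). DESeq2 1.42.0 size factors were an alternative, and log2 ratios had 0.5 counts added. Clopper-Pearson intervals came from SciPy 1.17.1. On simulated data, the exact binomial test called 89 of 91 genes changed 3-fold and 71 of 98 changed 1.5-fold. It called 7 of 195 unchanged genes beside them, and 0 of 388 when none was changed. The simulated counts were Poisson draws, the counting error that the test assumes, so these rates hold no spread between animals. They cover all genes with at least 10 counts in mean and are not rates for the members. Folding energies came from ViennaRNA 2.7.2. Genes named were the members at 2 CPM in both libraries, then those highest in mean CPM up to 25, every member past the test, the 5 with the most opposite-strand reads (3 had any), the highest of each position class, and detected mirtrons of a list. Other members named for a count, a shared host or an overlap were chosen after their values were seen. The members and lists were chosen with earlier results of these data known.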

Additional observations from a re-analysis of the deposited data

How the results depend on the processing

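The number of members at 2 CPM in both libraries, 8, depended on the threshold and the denominator. It was 11 without regard to strand and 6 with TMM sizes, 0 with all reads of the file as the denominator, 24 without the 10 most counted genes, 16 at 1 CPM, 1 at 5 CPM, 5 at 10 counts in both libraries, and 5 without members that overlap an exon. Judged on 1 library it was 13 to 16. For this count, the share of all miRNA genes is given only at the main setting (16.9%). The members' share of 0.0104% became 0.0125% without regard to strand, 0.00337% of all reads, 0.0247% without the 10 most counted genes, and 0.00791% without members overlapping an exon. Members with reads in both libraries fell from 82 to 31 at 3 counts. Members differing between the libraries, 2, became 3 with total counts (Mir6954 added, adjusted p = 0.0350 by the exact binomial test). They became 4 of 112 tested at 1 or more counts in mean (Mir6900, Mir6909, Mir7052 and Mir7010) and 0 of 1 tested at 20 or more. None was called by edgeR's exact test, whose dispersion takes in the difference under test, so that setting cannot decide. The share of all miRNA genes called is given only for the main setting (59.6%). The counts of members called under other settings are thus not read as results about the members. With total counts in place of TMM every log2 ratio moves by 0.20. Of 78 values of members' log2 ratios under other settings, 74 kept their direction and side of the threshold, 3 lost the call, 1 gained it and 0 reversed. Members in introns numbered 188 within 5 bases and 196 within 10 or 20. The cause of these changes was not tested beyond what each setting's construction gives. No paired analysis was possible because there is 1 group. Leaving out a library in the comparison of the 2 was not possible. Arms and read positions cannot be seen in counts per gene.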
